A study of Mus musculus with 8 samples.

Results

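Translation initiation and elongation factors bring the mRNA, the initiator tRNA and both ribosomal subunits together and then move the ribosome along the message. Their genes were examined in the bulk RNA-seq of long-term hematopoietic stem cells (LT-HSCs) from E14.5 fetal liver (FL). The rule for the 62 genes uses their names and a read minimum. They are the protein-coding genes whose symbol starts with *Eif1* to *Eif6*, *Eef1* or *Eef2*, without *Eif2ak2*, *Eif2s3x*, *Eif2s3y* and names with -ps, that had 10 or more reads summed over the 8 samples. Of 65 genes with such a symbol, *Eif4ebp3* with 5 reads, *Eef1a2* with 1 read and *Eif4e1b* with 0 reads fell under the minimum. The remaining 62 were part of the 20610 genes tested.

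Each of the 8 samples held 500 LT-HSCs, sorted as LSK cells (lineage-negative, SCA1+, cKIT+) that were CD48- and CD150+. The cells came from *IκBα* wild-type (WT, n = 3), heterozygous (HET, n = 3) and knockout (KO, n = 2) mouse embryos of 1 germline line, Nfkbia tm1Bal, with 1 mouse per sample by the study's methods and 1 further KO sample discarded there for its quality, so the gene was absent from every cell of a KO embryo and not from LT-HSCs alone. The label male, which the study read from the RNA itself, went with the label total RNA in WT1, WT2 and HET1. The other 5 samples carried the labels female and polyA RNA, so sex and this molecule label cannot be told apart, and no KO sample was male. *Nfkbia*, the *IκBα* gene, was at 1 read in KO1 and at none (0 reads) in KO2, between 23.4 and 67.7 CPM in WT and between 14.4 and 29.0 CPM in HET. CPM are reads per 1e6 reads after scaling by the trimmed mean of M-values (TMM), and 3 reads corresponded to 0.125 to 0.178 CPM at totals of 17895973 to 21720972 counted reads.

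The libraries also differed in the genes that define the sorted cells. The summed level of 7 LT-HSC markers (*Kit*, *Ly6a*, *Slamf1*, *Procr*, *Mecom*, *Hlf* and *Fgd5*) was 1037 and 1102 CPM in WT1 and WT2, 890.2 and 665 CPM in KO1 and KO2, 372 and 363.5 CPM in HET1 and HET2, and 210.2 and 189 CPM in WT3 and HET3. In HET3 *Ly6a*, which encodes the SCA1 antigen of the sort, had 0 reads, and *Procr* and *Mecom* were at 1.13 and 1.36 CPM. In WT3 these 3 genes were at 5.0, 8.49 and 10.1 CPM. *Kit* was at 135 to 231 CPM in all 8 libraries and made up most of the sum in both. WT3 and HET3 therefore stood apart from their label, and the counts that rest on them are given with and without them. In bulk samples, fewer cells of a type and less RNA per cell cannot be told apart.

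In initiation, eIF2 carries the initiator tRNA to the small ribosomal subunit, eIF1, eIF1A and eIF3 hold the subunit in a state that can scan, and the eIF4 factors bind the mRNA cap and unwind the leader. eIF5 and eIF5B complete start codon recognition and subunit joining, after which eEF1A delivers each aminoacyl-tRNA and eEF2 moves the ribosome by one codon. Hematopoietic stem cells are known for a lower rate of protein synthesis than the progenitors that arise from them.

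Per kb of exon, the most abundant message was that of *Eif5a*, the hypusine-carrying factor that relieves stalled ribosomes, with a mean over the 8 libraries of 1771 reads per kb of exon per 1e6 reads (RPKM). *Eef1a1*, which delivers aminoacyl-tRNA, followed with 641 RPKM, then *Eif3g* with 337 RPKM and the translocase *Eef2* with 289 RPKM. The median of the 62 genes was 73.9 RPKM, against 1.36 RPKM over all genes tested. At the low end were *Eif3j1*, *Eif2ak3* and *Eif5a2*, with 1.33, 1.34 and 1.42 RPKM, and *Eef1akmt3* with 0.0424 RPKM and 7 or fewer reads in every library. For that gene no comparison is read.

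The levels of the 62 genes varied together between libraries, and not along the genotype labels. Together they took 1.90% and 1.81% of the counted reads in WT1 and WT2, 2.72% in WT3, 2.42%, 2.59% and 2.75% in HET1, HET2 and HET3, and 1.90% and 2.31% in KO1 and KO2. The WT libraries thus spanned a wider range than the KO libraries, and both KO values lay inside it. On the scale of log2 CPM minus each gene's 8-sample mean, the median of the genes was -0.32, -0.50 and 0.40 in the WT libraries, 0.14, 0.25 and 0.44 in the HET libraries and -0.43 and -0.01 in the KO libraries. KO1 was below KO2 in 54 of the 62 genes, with a median difference of -0.45 on the log2 CPM scale against 0.01 over all genes.

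**Figure D1:**
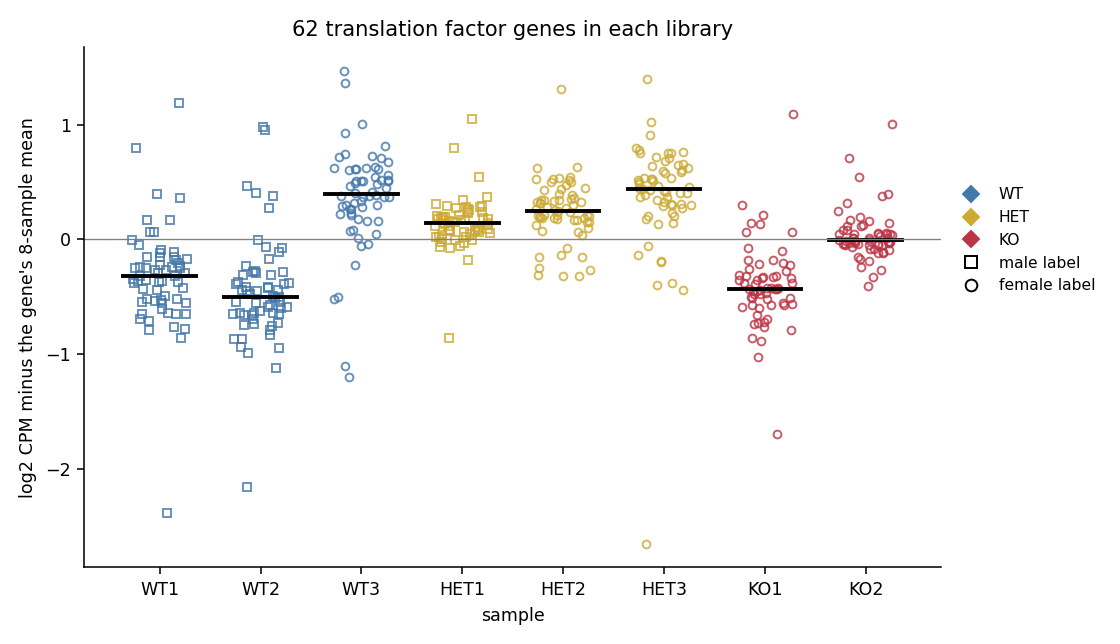
Each point is one of the 62 translation factor genes in one library, as log2 CPM minus the mean of that gene over the 8 libraries, with color for genotype, squares for the male label, circles for the female label and a black line at the median. The medians run from -0.50 in WT2 and -0.43 in KO1 to 0.40 in WT3 and 0.44 in HET3, so that WT libraries stand at both ends.

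The LT-HSC markers ran in the opposite order. The libraries with the highest summed marker level, WT2, WT1 and KO1, had the lowest shares of translation factor reads, and HET3 and WT3, with the lowest marker level, had the highest shares. Hepatocyte markers (6 genes, *Alb* and *Afp* among them) summed to 1338 and 673 CPM in WT3 and HET3, 130 and 192 CPM in HET1 and HET2, and 48.5 to 278 CPM in the remaining 4 libraries. *Alb* was under 1 CPM in WT1, WT2 and KO1. The part of the markers in the differences of the translation factors was not tested.

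**Figure D2:**
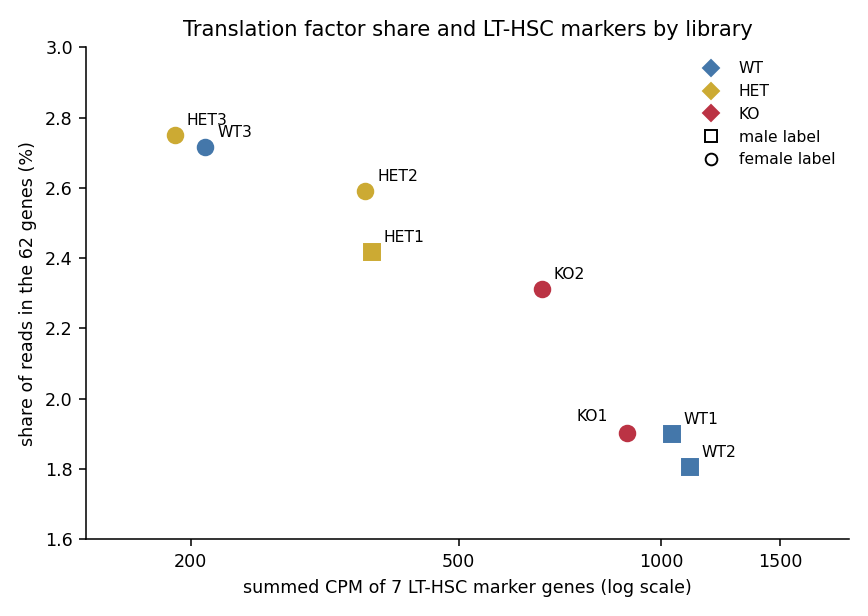
Each point is 1 library, with the summed CPM of 7 LT-HSC marker genes on a log scale (x axis) and the percentage of counted reads in the 62 translation factor genes (y axis). The share is highest, 2.75%, in HET3 at 189 CPM of markers and lowest, 1.81%, in WT2 at 1102 CPM.

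In KO against WT/HET, the comparison that the study's model makes with sex as a covariate, most translation factor genes were lower in KO. The log2 fold change was negative for 54 of the 62 genes and positive for 8, with a median of -0.56 against 0.13 over all genes. By the quasi-likelihood test of edgeR, 29 genes (46.8%) were lower at an unadjusted p under 0.05, against 9.48% of all genes, and 2 (3.23%), *Eif4e3* and *Eef2k*, were higher, against 15.7% of all genes. None of these passed the Benjamini-Hochberg adjustment over all genes, where the lowest adjusted p of the group was 0.148. A call needed an adjusted p under 0.05 and a change of more than 1 on the log2 scale. By that rule edgeR called 0 genes in the whole table (0%), or 730 without HET2, while 5196 had an unadjusted p under 0.05. DESeq2 called 1855 of the 20610 genes, and 6 of the 62 translation factor genes. At an adjusted p under 0.05, DESeq2 found 15 of the translation factor genes lower (24.2%, against 4.92% of all genes) and 1 higher (*Eif4e3*, against 8.46% of all genes).

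The count of 29 depended on single libraries and on the model. It was 0 without sex in the model and 17 with library size as the only scaling. It was 14 without WT3, 13 without HET3 and 1 without both, and it was 0 without KO1, where 1.67% of all genes were lower at that threshold. Of all genes, 4.64% were lower at that threshold with library size as the only scaling, 5.25% without WT3, 4.9% without HET3 and 1.02% without both. Leaving out KO2 leaves KO1 as the only KO library. The median log2 fold change stayed negative in each of these fits, from -0.28 with library size as the only scaling to -0.82 without KO2. Without WT3 and HET3 the gene still lower was *Eif4ebp2* (-0.68), so the other genes named here at an unadjusted p under 0.05 did not pass it in that fit, while the median of every class kept its sign. Because both KO samples were female, the model sets them in effect against WT3, HET2 and HET3. The 7 LT-HSC markers were all higher in KO at an unadjusted p under 0.05 in the same fit, against 15.7% of all genes, with a median log2 fold change of 2.76, and 1 of them was without WT3 and HET3 or without KO1. Other marker lists differed as well, with a median log2 difference of KO from the 3 female references of 2.13 for endothelial (6 genes), 2.02 for megakaryocyte (5 genes), 1.6 for CD48+ progenitor (4 genes), -1.15 for macrophage, -1.41 for erythroid, -3.27 for hepatocyte and -0.07 for lymphoid (4 genes) markers, against 0.12 over all genes. Endothelial markers summed to 35.6, 12.9 and 4.86 CPM in HET2, WT3 and HET3, to 137, 147 and 47.9 CPM in WT1, WT2 and HET1, and to 138 and 74.0 CPM in KO1 and KO2. From the male references, the median log2 difference was 0.04 for endothelial, 0.22 for megakaryocyte and -0.42 for CD48+ progenitor markers. For macrophage, erythroid, hepatocyte and lymphoid markers it was -0.95, -0.91, 1.04 and -0.37, against 0.00 over all genes. Their part in the result was not tested.

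**Figure D3:**
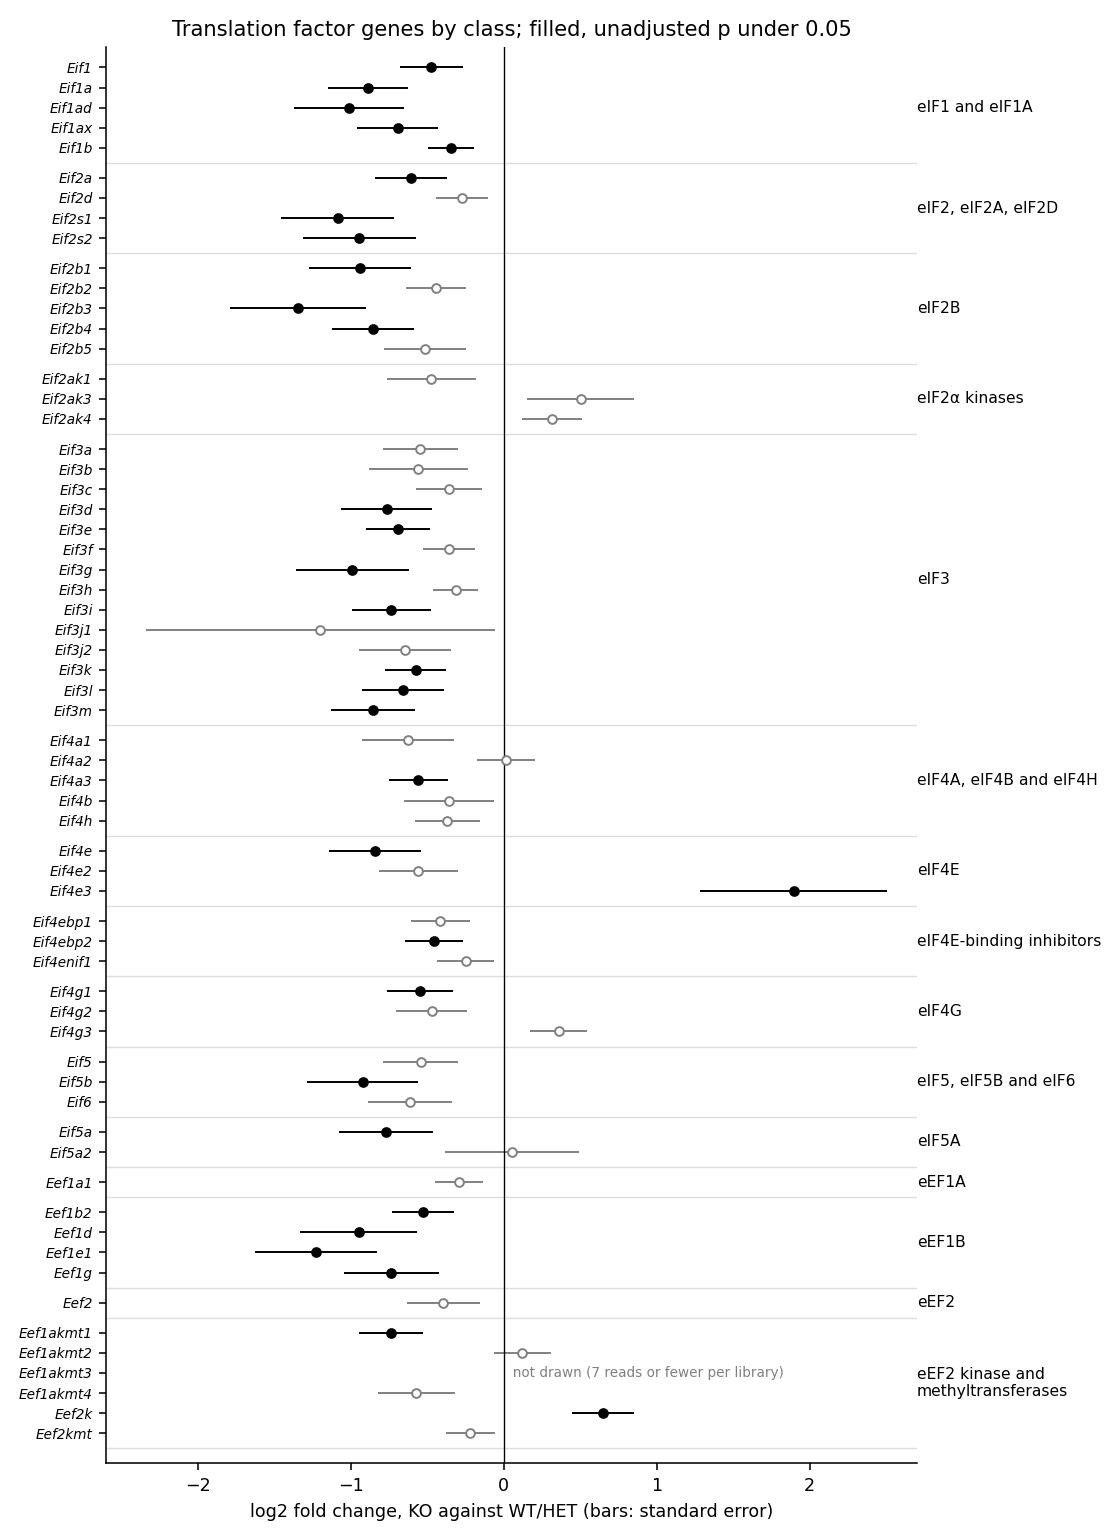
Log2 fold change of each translation factor gene in KO against WT/HET from edgeR with sex in the model (x axis, bars are standard errors), grouped by factor class, with filled points at an unadjusted p under 0.05. Of the 61 genes drawn, 2 filled points, *Eif4e3* and *Eef2k*, lie above 0 and 29 lie below it.

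All 5 genes of the eIF1 and eIF1A class, which keep the scanning subunit from starting at the wrong codon, were lower at an unadjusted p under 0.05. *Eif1a* stood at 328, 263 and 607 CPM in WT1, WT2 and WT3, at 426, 446 and 645 CPM in HET1, HET2 and HET3, and at 265 and 346 CPM in KO1 and KO2. Both KO values were under every HET value and under WT3, but they overlapped WT1 and WT2. Its log2 fold change was -0.89 ± 0.26 (SE, adjusted p = 0.151). The X-linked copy *Eif1ax* gave -0.69 and *Eif1ad*, whose product has an eIF1A-like domain, gave -1.01. *Eif1* and its close copy *Eif1b* gave -0.47 and -0.34, the smallest differences of the class.

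Of the eIF2 class, *Eif2s1* and *Eif2s2*, the alpha and beta subunits of the initiator tRNA carrier, were lower with log2 fold changes of -1.09 and -0.95. *Eif2s1*, whose product is the target of the stress kinases, was measured at 284, 244 and 783 CPM in the WT libraries, 546, 609 and 775 CPM in the HET libraries and 262 and 418 CPM in the KO libraries. KO1 was within the range of WT1 and WT2, and KO2 lay between these and HET1. *Eif2a*, a factor that can bring initiator tRNA without eIF2, was also lower (-0.61), and *Eif2d*, another such factor, gave -0.27 at an unadjusted p of 0.139.

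eIF2B reloads eIF2 with GTP and is blocked by phosphorylated eIF2. All 5 subunit genes had negative log2 fold changes, with a class median of -0.86, and *Eif2b1*, *Eif2b3* and *Eif2b4* were lower at an unadjusted p under 0.05. *Eif2b3* had the most negative fold change of the 62 genes, -1.35 ± 0.44 (SE, adjusted p = 0.154). The libraries gave 88.5, 69.0 and 302 CPM in WT, 181, 233 and 306 CPM in HET and 73.8 and 147 CPM in KO. Against the female WT3, HET2 and HET3 the KO libraries did not overlap, whereas the male WT1 and WT2 lay beside KO1. *Eif2b5*, the catalytic subunit, gave -0.51 at an unadjusted p of 0.0877.

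eIF3 is the largest initiation factor and the platform on which the other factors meet the small subunit. All 14 of its genes had a negative log2 fold change, with a median of -0.65, and 7 of them (*Eif3d*, *Eif3e*, *Eif3g*, *Eif3i*, *Eif3k*, *Eif3l* and *Eif3m*) were lower at an unadjusted p under 0.05. *Eif3e* was at 429, 343 and 680 CPM in WT, 510, 545 and 647 CPM in HET and 349 and 423 CPM in KO, and its log2 fold change was -0.69 ± 0.21 (SE, adjusted p = 0.152). *Eif3g*, the most abundant member per kb, ranged from 334 CPM in WT2 to 1032 CPM in HET3, with 353 and 626 CPM in KO1 and KO2. Thus KO2 was 1.77-fold above KO1 for *Eif3g*, while the 2 KO libraries were closer to each other for *Eif3e*. The large subunits *Eif3a*, *Eif3b* and *Eif3c* gave -0.55, -0.56 and -0.36 and missed the threshold.

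In the cap-binding and unwinding group the differences were smaller. *Eif4a3*, the helicase of the exon junction complex, was lower (-0.56 ± 0.19, SE), and the initiation helicase *Eif4a1* (-0.63, unadjusted p = 0.0700) and its partners *Eif4b* (-0.36) and *Eif4h* (-0.37) missed the threshold. *Eif4e*, the cap-binding protein, was lower with 179, 152 and 387 CPM in WT, 291, 321 and 405 CPM in HET and 167 and 247 CPM in KO, a log2 fold change of -0.84 ± 0.30 (SE, adjusted p = 0.160). Its copy *Eif4e2*, which binds caps without recruiting the scaffold, gave -0.56 at an unadjusted p of 0.0598. Of the scaffolds, *Eif4g1* was lower (-0.55) and *Eif4g2*, which lacks the eIF4E-binding region, gave -0.47 at an unadjusted p of 0.0749. Among the proteins that bind eIF4E and hold it back, *Eif4ebp2* was lower (-0.45), and *Eif4ebp1* and *Eif4enif1* gave -0.42 and -0.25.

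For the late steps of initiation, *Eif5b*, the GTPase of subunit joining, was lower (-0.92), and *Eif5*, which triggers GTP hydrolysis on eIF2, and *Eif6*, which keeps the large subunit apart, gave -0.55 and -0.61 at unadjusted p of 0.0538 and 0.0551. *Eif5a* was lower, from 2713, 2384 and 5665 CPM in WT and 4533, 5507 and 6114 CPM in HET to 2811 and 3941 CPM in KO (log2 fold change -0.77 ± 0.31, SE, adjusted p = 0.175). KO1 lay just above WT1 and WT2, and KO2 was under all 3 HET libraries and WT3.

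In elongation, all 4 genes of the eEF1B class were lower at an unadjusted p under 0.05. *Eef1b2*, *Eef1d* and *Eef1g* belong to the complex that reloads eEF1A with GTP. *Eef1e1*, grouped here with them, encodes a part of the tRNA synthetase complex. It gave the largest difference, -1.23 ± 0.40 (SE, adjusted p = 0.153), with 144, 124 and 469 CPM in WT, 290, 381 and 465 CPM in HET and 134 and 241 CPM in KO. *Eef1d*, *Eef1g* and *Eef1b2* gave -0.95, -0.74 and -0.53. The elongation factors themselves differed less and missed the threshold. *Eef1a1* ranged only from 1402 CPM in KO1 to 1802 CPM in WT3 (-0.29 ± 0.16, SE, unadjusted p = 0.101). *Eef2* was at 645, 697 and 1094 CPM in WT, 967, 1196 and 1282 CPM in HET and 740 and 1071 CPM in KO (-0.40 ± 0.24, SE, unadjusted p = 0.134). *Eef1akmt1*, which methylates eEF1A, had the lowest unadjusted p of the 62 genes, 0.00700, at -0.74 ± 0.21 (SE, adjusted p = 0.148).

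**Figure D4:**
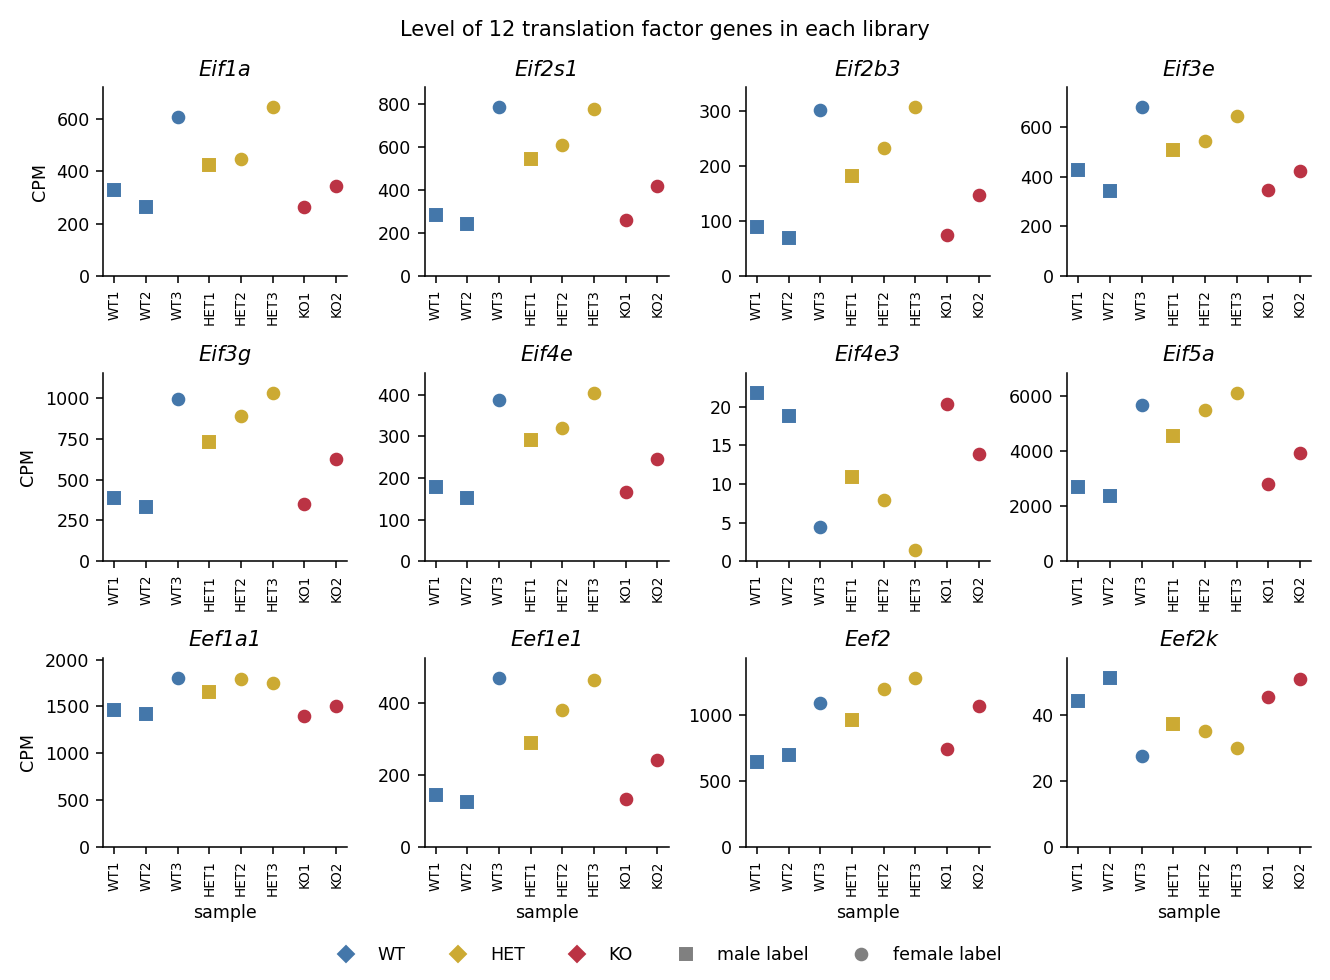
CPM of 12 translation factor genes (y axis, from 0) in each library (x axis), with color for genotype, squares for the male label and circles for the female label. In *Eif2s1*, *Eif2b3* and *Eef1e1*, KO1 lies with WT1 and WT2, KO2 lies between these and HET1, and WT3 lies with HET3, while *Eif4e3* shows the reverse order.

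The genes with a positive fold change were mostly regulators or low copies of the general factors. *Eif4e3*, an atypical cap-binding relative of *Eif4e*, had 21.8, 18.8 and 4.38 CPM in WT, 10.9, 7.97 and 1.42 CPM in HET and 20.4 and 13.9 CPM in KO (log2 fold change 1.90 ± 0.61, SE, adjusted p = 0.153). *Eef2k*, the kinase that inactivates eEF2, had 44.3, 51.2 and 27.5 CPM in WT, 37.3, 35.2 and 29.8 CPM in HET and 45.6 and 51.0 CPM in KO (0.65 ± 0.20, SE, adjusted p = 0.152). In both genes the KO libraries were above all 3 HET libraries and WT3, and they overlapped WT1 and WT2. Of the eIF2 kinases, which shut initiation down under stress, *Eif2ak3* (ER stress) and *Eif2ak4* (amino acid shortage) gave 0.50 and 0.31 and *Eif2ak1* (heme shortage) gave -0.47, and all 3 missed the threshold. The other positive values, 0.36 for *Eif4g3*, 0.12 for *Eef1akmt2*, 0.05 for *Eif5a2* and 0.02 for *Eif4a2*, missed the threshold, and those of *Eif5a2* and *Eif4a2* changed sign under other settings.

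Ratios within a library do not depend on the scaling between libraries. There were 12.2, 12.4 and 1.13 reads of *Eif4e3* per 100 reads of *Eif4e* in WT1, WT2 and WT3, 3.75, 2.48 and 0.352 in HET1, HET2 and HET3, and 12.2 and 5.62 in KO1 and KO2. For *Eef2k* per 100 reads of *Eef2* the values were 6.87, 7.35 and 2.51 in WT, 3.86, 2.94 and 2.33 in HET and 6.16 and 4.77 in KO. Both ratios ordered the libraries alike, with WT2, WT1 and KO1 at the top, then KO2, HET1 and HET2, and WT3 and HET3 at the bottom. The ratio of *Eif4g3* to *Eif4g1* ran in a similar order, with 34.4 and 23.8 reads of *Eif4g3* per 100 of *Eif4g1* in KO1 and KO2 against 32.5 and 43.6 in WT1 and WT2 and 12.7 to 21.1 in the other 4. For *Eif4a2* per 100 reads of *Eif4a1*, KO1 (118) was between the male WT libraries (157 and 158) and the rest, KO2 and HET1 were alike at 65.9 and 65.5, and HET2 was lowest at 53.0. None of these 4 ratios was above all 3 male references in both KO libraries, and all 4 were above the 3 female references. The numerators had positive and the denominators negative fold changes in these data, so this direction was largely given by the choice of pairs. *Eif4e2*, itself with a negative fold change, was above the female references too, at 120 and 116 per 100 reads of *Eif4e* in KO1 and KO2 against 94.9 to 101. *Eif1ax* per 100 reads of *Eif1a* was not, at 117 and 124 against 96.7 to 123.

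**Figure D5:**
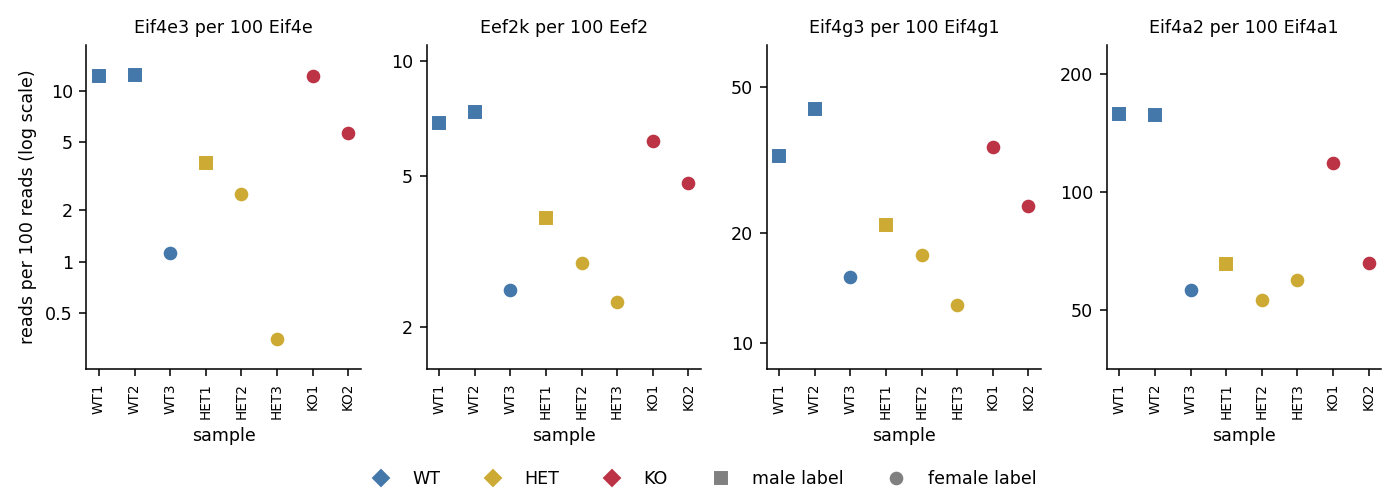
Reads of a gene per 100 reads of its partner in the same library (log scale), with color for genotype, squares for the male label and circles for the female label. In the first 2 panels WT1, WT2 and KO1 have the highest ratios, up to 12.4 for *Eif4e3* to *Eif4e* and 7.35 for *Eef2k* to *Eef2*, and HET3 has the lowest, 0.352 and 2.33.

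Whether the KO libraries overlapped the others depended on the reference. In 0 of the 62 genes were both KO values below all 6 WT and HET values, where 1.79% of all genes had that pattern, or above all 6, where 3.05% had it. Against the 3 female references, both KO values were below in 47 genes (75.8%, against 21.4% of all genes) and above in 5 (8.06%, against 27.1%), namely *Eif4e3*, *Eef2k*, *Eif4g3*, *Eif2ak3* and *Eif2ak4*. Set against the 3 male references, they were below in 2 genes (3.23%, against 5.98%), *Eif2d* and *Eif5a2*, and above in 0 (against 6.18%). Without WT3 and HET3, HET2 is the one female reference left, and both KO values were below it in 47 genes (75.8%, against 33.5% of all genes). The median log2 difference was -0.56 from the female references and 0.04 from the male references. The female references were themselves above the male references in 46 genes (74.2%, against 17.5% of all genes), and 44 genes were lower in male than in female samples at an unadjusted p under 0.05 (71.0%, against 13.6%), which left 1 gene, *Eif4ebp2*, without WT3 and HET3. These 3 sets of samples also differed in the summed LT-HSC markers, with 665 and 890.2 CPM in KO, 189 to 363.5 CPM in the female and 372 to 1102 CPM in the male references. On the 5 female samples alone, 38 genes were lower (61.3%, against 12.3% of all genes) and 2 were higher (3.23%, against 12.6%) at an unadjusted p under 0.05, with a lowest adjusted p of 0.119. These counts were 27 and 0 without WT3, against 6.68% and 7.42% of all genes, and 26 and 1 without HET3, against 6.62% and 9.1%. Without KO1, KO2 is the only KO library, and the median log2 fold change was -0.38. Without WT3 and HET3, HET2 is the only reference, and the median was -0.47.

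With each genotype on its own in a model of 3 genotypes and sex, KO was lower than HET in 37 genes at an unadjusted p under 0.05 (59.7%, against 11.4% of all genes) and higher in 2 (3.23%, against 16.4%), again *Eif4e3* and *Eef2k*. Against WT, KO was lower in 3 genes (4.84%, against 2.56% of all genes), *Eif1a*, *Eif3e* and *Eef1akmt1*, with log2 fold changes of -0.77, -0.63 and -0.70. The median log2 fold changes of the 62 genes were -0.65 against HET and -0.38 against WT. Both comparisons share the KO samples. Without WT3 and HET3, KO against HET rests on HET2, the only female reference left. KO against WT/HET rests on HET2 too in that setting, and both gave a median of -0.47. Against WT the median turned to 0.10. No female WT and no male KO is left there, so the model links KO to WT1 and WT2 only through HET1 and HET2. Without KO1, KO2 is the only KO library, and the medians were -0.45 against HET and -0.19 against WT. With all 8 samples, the lowest adjusted p of the group by edgeR was 0.123 against HET and 0.530 against WT.

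Between HET and WT no gene of the group passed the threshold. At an unadjusted p under 0.05, 0 of the 62 genes differed by edgeR, against 3.29% of all genes, and at an adjusted p under 0.05 it found 0 in the whole table (0%), where 418 were lower and 261 higher at an unadjusted p under 0.05 and DESeq2 called 55. Even so, 55 of the 62 values were positive, with a median log2 fold change of 0.28 in HET against 0.00 over all genes. The genes with the smallest unadjusted p were *Eif1ad*, *Eif4ebp2*, *Eef1g*, *Eef2* and *Eif5b*, with log2 fold changes from 0.29 to 0.53 and unadjusted p from 0.0929 to 0.113. In these values WT3 is the only female WT. Without WT3 no female WT is left, so with sex in the model the comparison sets HET1 alone against WT1 and WT2. The same holds without WT3 and HET3. The median was 0.53 in both fits, with 55 of the 62 values positive, so the positive values did not rest on WT3. Both fits are the comparison among the male samples given below and not separate results. Between samples with the same number, which may come from the same litter, HET was above WT in 54, 53 and 38 of the 62 genes for numbers 1, 2 and 3 (47.9%, 43.3% and 43.9% of all genes), with median log2 differences of 0.44, 0.77 and 0.04. Number 2 sets the male WT2, labelled total RNA, against the female HET2, labelled polyA RNA. Genotype cannot be told apart from sex and label in that pair. With the replicate number as a block, 1 gene passed an unadjusted p under 0.05, *Eif4e3*, lower in HET (-1.32), and the median was 0.37. The direction differed by sex and label. Among the male samples, HET1 was above WT1 and WT2 in 54 genes (87.1%, against 38.8% of all genes), by a median log2 difference of 0.53. The female samples showed another pattern, with HET2 and HET3 both above WT3 in 11 genes (17.7%, against 24.7% of all genes) and both below it in 21 (33.9%, against 29.7%), and a median difference of -0.07. An interaction of HET with sex in the 6 WT and HET samples was positive at an unadjusted p under 0.05 in 22 genes (35.5%, against 6.39% of all genes), and none passed the adjustment (lowest adjusted p 0.453). Leaving out HET3 leaves 5 samples for 4 coefficients, with HET1, WT3 and HET2 each alone for its sex and genotype. The median of this interaction over the 62 genes was then 0.68, against -0.08 over all genes. It could not be fitted without WT3. HET1 stands alone for the male HET and WT3 for the female WT. Erythroid markers (6 genes) summed to 8547 CPM in HET1 and to 530 to 3299 CPM in the other 7 libraries, and macrophage markers (6 genes) to 196 CPM in WT3 and to 23.5 to 113 CPM in the others, and their part was not tested.

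Other genes of protein synthesis were read against the same background of 9.48% lower and 15.7% higher in KO against WT/HET. Of 22 cytosolic aminoacyl-tRNA synthetase genes, which charge tRNAs with amino acids, 12 were lower at an unadjusted p under 0.05 and 0 higher, led by *Dars* (-0.81), *Hars* (-0.96) and *Sars* (-0.76). Among 9 release and recycling factors, 6 were lower, led by *Hbs1l* (-0.91), which rescues stalled ribosomes, *Mcts1* (-0.53) and *Etf1* (-1.09), the factor that reads stop codons. The enzymes that make hypusine on eIF5A and diphthamide on eEF2 had 5 of 9 genes lower, with *Dph3* at -0.97, *Dhps*, the first enzyme of hypusine synthesis, at -0.97 and *Dnajc24* at -0.69. Mitochondrial translation factors had 3 of 9 lower, *Tsfm* (-1.05), *Gfm1* (-1.0) and *Mrrf* (-0.55).

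Regulators and partners of the factors showed fewer such genes. Of 9 integrated stress response genes tested, 2 were lower, *Atf4* (-0.86), the transcription factor made when eIF2 is phosphorylated, and its target *Asns* (-1.68), and *Trib3* gave 1.61 at an unadjusted p of 0.0737. In the mTORC1 pathway, which controls the eIF4E-binding proteins, 2 of 12 genes were lower and 2 higher, with *Rps6kb1* at -0.43, *Rps6* at -1.29, *Tsc1* at 0.74 and *Deptor* at 0.64. Among 12 poly(A)-binding proteins and cap-complex partners, 1 was lower, the helicase *Ddx3x* (-0.65), and 2 were higher, *Pdcd4* (0.87), an inhibitor of eIF4A, and *Cyfip1* (0.51), an inhibitor that binds eIF4E. Without WT3 and HET3, 0 genes of the 7 lists were lower at an unadjusted p under 0.05, and without KO1 the number was 1, in the release and recycling list. No gene of these 7 lists passed an adjusted p of 0.05 by edgeR.

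Promoters were compared because the levels of the genes varied together. RefSeq promoters of GRCm38.p6, from 250 bases before to 50 after the start, were at hand for 48 of the 62 genes, 63 promoters in all. The E-box CACGTG, the site read by MYC and USF factors and the same on both strands, lay in 15 of the 63 promoters (23.8%), against 9.20% of 15899 promoters of the genes tested. Promoters of the same gene can overlap and are counted separately. The E-box at -74 of 1 *Eif5a* promoter is the same site as that at -185 of another. Counted by gene, 13 of the 48 had an E-box, and no count by gene was made over all genes tested. The ETS motif CCGGAAGT (either strand) lay in 17.5% against 6.94%, the GC box GGGCGG in 69.8% against 56.8%, CCAAT in 27.0% against 37.2%, TATAAA in 6.35% against 8.06%, and the κB motif, the site of the factors that IκBα holds back, in 4.76% against 5.16%. These shares are a description of letters in a window, and no binding was measured here. The 5 promoters with an E-box in the 100 bases before the start, and with no annotated exon in them, are given here with the E-box in capitals, because they include a gene that was higher in KO and genes that were lower.
Eef2k, chr7:120842731-120842830, plus strand: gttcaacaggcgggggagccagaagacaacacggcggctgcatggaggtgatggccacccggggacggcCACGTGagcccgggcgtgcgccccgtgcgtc
Eef2, chr10:81176531-81176630, plus strand: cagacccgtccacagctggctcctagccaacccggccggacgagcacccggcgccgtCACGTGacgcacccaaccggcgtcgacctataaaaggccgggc
Eif5a, chr11:69921387-69921486, minus strand: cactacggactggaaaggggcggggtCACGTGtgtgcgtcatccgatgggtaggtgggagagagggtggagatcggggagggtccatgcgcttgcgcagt
Eif3k, chr7:28981889-28981988, minus strand: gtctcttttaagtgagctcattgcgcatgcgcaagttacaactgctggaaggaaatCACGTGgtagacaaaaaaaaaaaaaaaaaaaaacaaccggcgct
Eif3f, chr7:108934315-108934414, plus strand: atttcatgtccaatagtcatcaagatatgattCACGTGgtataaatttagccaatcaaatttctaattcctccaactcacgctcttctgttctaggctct

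With the base next to the start counted as -1, the E-box begins at -31 in *Eef2k*, -43 in *Eef2*, -44 in *Eif3k*, -68 in *Eif3f* and -74 in *Eif5a*. The same motif thus stood before *Eef2k*, with a log2 fold change of 0.65 in KO against WT/HET, and before *Eif5a* and *Eif3k*, with -0.77 and -0.58. *Eef2* (-0.40) and *Eif3f* (-0.36) missed the threshold.

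Some of the genes share sequence with copies elsewhere, which lowers and blurs counts of uniquely mapped 50-base reads. The share of their transcript 50-mers found in another gene was 91.9% for *Eif3j2*, 50.9% for *Eif3j1*, 44.2% for *Eef1g* and 40.4% for *Eef1a1*. It was 37.2% for *Eif3d*, all with the antisense gene *Gm17638*. That gene is no copy elsewhere but overlaps 43.3% of the *Eif3d* exon bases at the same place. Reads there can map uniquely, and only the gene they are counted for is uncertain. *Eif3j1*, a loosely bound subunit of eIF3 with a near-identical copy in *Eif3j2*, had 0.842, 1.0 and 13.5 CPM in WT1, WT2 and WT3, 10.1, 12.2 and 12.9 CPM in HET1, HET2 and HET3, and 1.42 and 9.79 CPM in KO1 and KO2. WT1, WT2 and KO1 were thus near 1 CPM and the other 5 libraries near 10 CPM or above, with no library between. Its log2 fold change of -1.20 ± 1.14 (SE) had an unadjusted p of 0.323. *Eif3j2* covered a narrower range, with 6.83, 6.94 and 12.03 CPM in WT, 8.67, 9.79 and 11.6 CPM in HET and 7.15 and 7.08 CPM in KO, so WT1, WT2 and KO1 were again low, here together with KO2.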

How the data were processed

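Bulk RNA-seq of 8 samples of 500 sorted LT-HSCs was analyzed. The authors deposited raw counts of uniquely mapped reads per gene. By the methods and the submitters' processing notes these came from 50-base single-end reads trimmed with Trim Galore 0.6.6, aligned to GRCm38 (Ensembl release 102) with STAR 2.7.8 and counted there. The strand column is not named, so overlapping antisense genes are uncertain. A deposited table of normalized, sex-corrected values was not used. Gene IDs were named with GENCODE M21, which matched 55227 of 55487.

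Genes with 10 or more summed reads were tested with edgeR 4.0.16 (R 4.3.3; glmQLFit in legacy form, glmQLFTest, TMM), with sex as a covariate and KO set against WT and HET together, the design that the methods use in DESeq2. The other edgeR models were 3 genotypes with sex, and the female samples alone. P-values were adjusted by Benjamini-Hochberg over all genes. Alternatives were DESeq2 1.42.0, other scalings and read minimums, no sex term, a replicate block and leaving out each sample. The female-only alternative, the newer edgeR fit, all fits without WT3 and HET3, and the fits of the lists, classes and other comparisons without WT3, HET3 or KO1 were added after seeing the data. Deviations from the group means correlated in all 3 same-numbered WT and HET pairs (r = 0.293, 0.198 and 0.59). WT and HET samples of different numbers gave r from -0.493 (WT2 with HET3) to 0.403 (WT2 with HET1). This check therefore cannot decide whether the numbers pair samples, and the replicate block is an alternative only. Litters were shared where possible by the methods. For KO, r was 0.278 for WT1 with KO1 and -0.346 for WT2 with KO2. With 2 KO samples, the r of KO1 with any sample is that of KO2 with the sign reversed. Exact permutation tests (two-sided) used log2 CPM (2 reads added as a prior), where 2 samples against 6 cannot go below p = 0.0357, nor 3 against 3 below p = 0.1. The scripts were tested on simulated data. The methods give 1 mouse per sample, and floors cover counting error only. Within genotypes the libraries differed by more than sampling noise.

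The genes, classes and lists were chosen with earlier results of these data known. Genes were named by rule: *Nfkbia*, the most abundant gene per kb of each class, up to 10 genes per direction by p in KO against WT/HET and 5 in HET against WT, the related copies, and 3 genes per pathway list. Other genes were named after their values were seen. One gene of the LT-HSC marker list is not reported here and was left out of its sums.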

Additional observations from a re-analysis of the deposited data

How the results depend on the processing

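In KO against WT/HET, the 62 genes kept a negative median log2 fold change under every alternative run, from -0.82 to -0.28, including -0.30 without sex in the model. Library size alone gave a median of 0.41 over all genes against 0.13 with TMM, and the translation factors lay 0.69 below it in both.

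The count of translation factor genes at an unadjusted p under 0.05 was less stable. With library size alone 17 were lower and 4 higher, where 4.64% and 22.2% of all genes were. Without sex in the model or with the replicate block it was 0 in both directions. Of all genes, 0.922% were lower and 1.08% higher without sex, and 0.951% and 1.91% with the block. Leaving out 1 library gave 0 to 42 lower, with 0 without KO1, and 1 to 2 higher. Without WT3 and HET3, an alternative added after seeing the data, 1 was lower and 0 higher. *Eif4a2* (0.02) turned to -0.0196 with DESeq2, -0.0197 with its scaling in edgeR, -0.18 without sex and -0.0334 in female samples only, and ranged from -0.19 to 0.20 when 1 library was left out. *Eif5a2* (0.05) turned to -0.57 without sex, -0.15 with the replicate block and -0.02 without WT3 and HET3, and ranged from -0.25 to 0.38 when 1 library was left out.

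Counts of genes called in the whole table were 0 in all 5 comparisons. DESeq2 called 1855 in KO against WT/HET, 1866 against the female WT/HET, 131 against WT, 2504 against HET and 55 in HET against WT. With no filter but 1 read, edgeR called 1106, 1442, 420, 2979 and 31. Requiring 10 reads in every sample gave 2 against the female WT/HET, the newer edgeR fit, added after seeing the data, gave 1 against WT/HET, and the replicate block gave 1 in KO against HET and 1 in HET against WT. Leaving out 1 library gave 0 to 730 against WT/HET, 0 to 850 against WT and 0 to 3243 against HET, each highest without HET2, 0 to 1190 against the female WT/HET, highest without KO2, and 0 in HET against WT. The cause of these shifts was not tested.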
